A study of Mus musculus with 16 samples.

Results

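Expression of 10 regulators of haematopoietic progenitors was followed through foetal erythroblast maturation. The genes were *Kit*, *Cd34*, *Myb*, *Gata2*, *Spi1*, *Runx1*, *Fli1*, *Lyl1*, *Meis1* and *Myc*, and they were found by symbol in the deposited table of 55416 genes, where each had 1 row. RNA-seq had been made from S1 cells (erythroid colony-forming progenitors) and S3 cells (basophilic erythroblasts), sorted by Ter119 and CD71 from E13.5 mouse foetal liver; the S2 stage between them was not analysed here. The WT group had 4 embryos (2 male and 2 female), the heterozygous (Het) group 2 (both male) and the *Nprl3*−/− (KO) group 2 (1 male and 1 female), with 1 S1 and 1 S3 library from each of the 8 embryos. The KO carries a constitutive deletion of the *Nprl3* promoter in every tissue, in a line backcrossed onto C57BL/6J, and leaves the α-globin enhancers within the gene in place; Het embryos carry 1 deleted allele. Each library came from sorted cells of 1 embryo, and its RNA was amplified before library preparation. The labels name an embryonic stem cell line as source, while their titles and protocols give sorted foetal liver cells. Libraries are named below by embryo number, in the order 0, 1, 5 and 8 for WT, 3 and 4 for Het, and 2 and 9 for KO.

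These genes are known for their roles in blood stem and progenitor cells. KIT is the receptor of stem cell factor, and CD34 is a surface sialomucin of stem and progenitor cells and of endothelium. GATA2 is the GATA factor of progenitors and is replaced at many of its sites by GATA1 as erythroid cells mature. MYB and MYC drive proliferation, and their decline accompanies exit from the cell cycle in erythroblasts. SPI1 (PU.1) and FLI1 are ETS factors of the myeloid and megakaryocytic lineages, RUNX1 is the DNA-binding partner of CBFβ, MEIS1 is a homeodomain partner of HOX and PBX proteins, and LYL1 is a bHLH factor closely related to TAL1.

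The members did not move as one group. In WT, 8 of the 10 fell from S1 to S3, *Lyl1* rose and *Runx1* did not pass the test, and the same 8, 1 and 1 genes held these places in Het and in KO. A gene is called here where its p from the quasi-likelihood fit of edgeR, adjusted by Benjamini-Hochberg over every gene tested, is below 0.05. All 10 members passed the filter (a mean of more than 10 normalized counts over the libraries compared) in each of these comparisons. Among all genes tested in WT, 35.0% were called lower and 30.6% higher. These shares were 39.6% and 36.3% in Het, and 28.4% and 24.7% in KO. The median log2 fold change of the members in WT was −3.25, against −0.08 over all 13514 genes. Described as regulators lost during maturation, the set held 8 genes that fell, while *Lyl1* rose, against that description, and a fall of *Runx1* was not shown. Genes of the neutrophil list, and of the mast cell and basophil list, fell between the stages as well. Of the tested neutrophil genes 10 of 10 were called lower in WT, 8 of 8 in Het and 6 of 10 in KO, and of the mast cell and basophil genes 4 of 5, 5 of 5 and 6 of 6. Over all genotypes the summed neutrophil level was 121 to 1660 CPM (counts scaled to the library size) at S1 and 1.11 to 14.2 at S3. Most of the S1 sum was *Mpo*, at 98 to 1230 CPM, and *Ly6g* had 0 in every library. Other lists differed. In WT, 4 of 5 tested lymphoid genes were called lower, while 9 of 12 macrophage and 5 of 13 hepatoblast genes were called higher. Megakaryocyte and endothelial genes had 2 of 8 called in each direction. The part of other cells in the members' falls was not tested. The members' medians were −4.05 in Het and −3.07 in KO, against −0.05 and −0.09 over all genes.

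**Figure D1:**
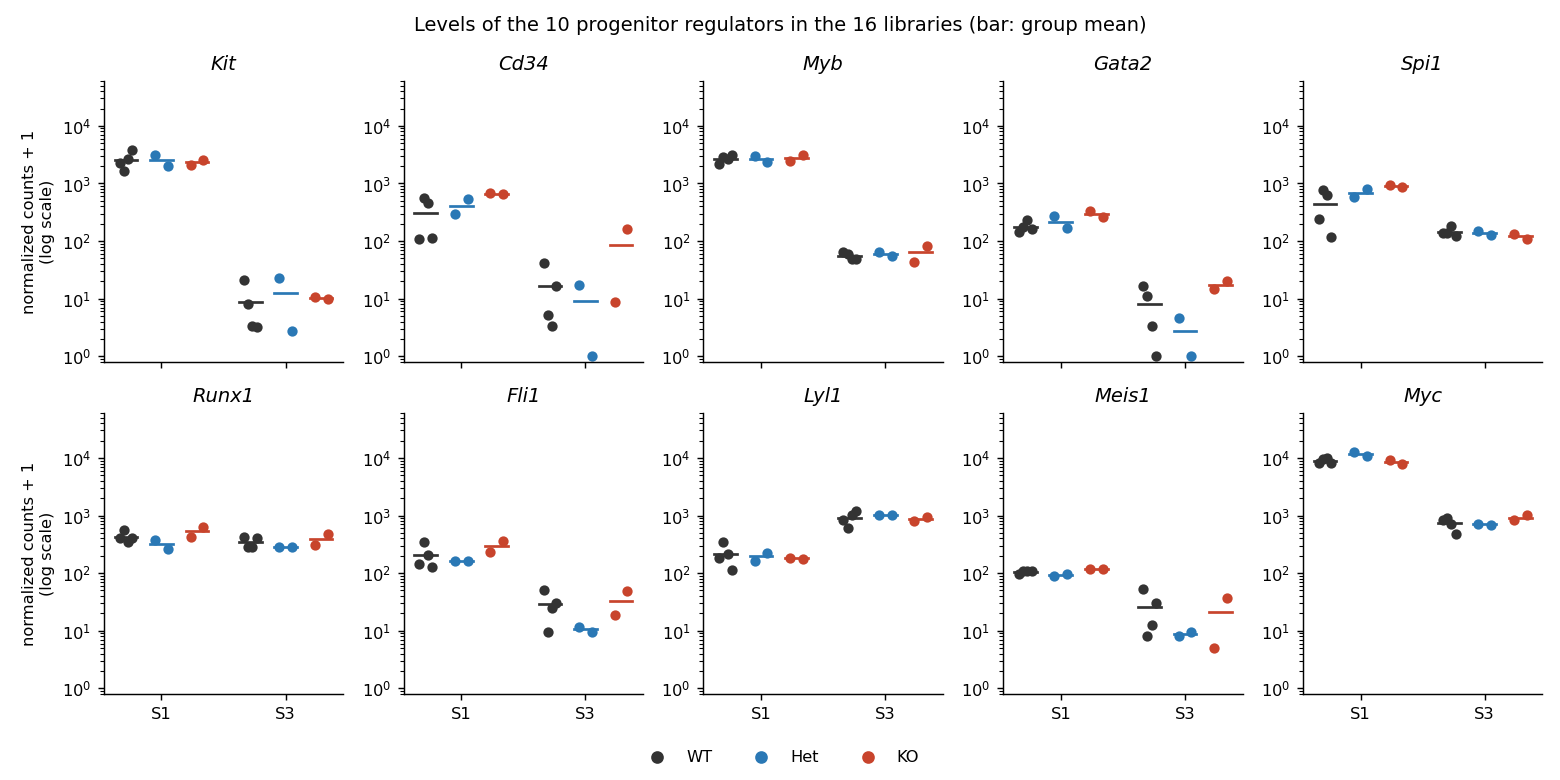
Normalized counts plus 1 (log scale) of the 10 members in the 16 libraries, by stage and genotype, with each point a library and each bar a group mean. *Kit* lies between 1658 and 3831 in the S1 libraries and between 1.69 and 21.6 in the S3 libraries, *Runx1* overlaps between the stages, and *Lyl1* is higher at S3.

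Ranked per length of transcript, the order of the members turned over between the stages. At S1 in WT, *Myc* stood first at 108 ± 11.4 FPKM (mean ± SD, n = 4; computed here from the counts, the exonic length and the scaled library size), and its lowest library was above the highest of any other member. *Myb* (9.73 ± 1.40) and *Kit* (9.43 ± 3.33) followed, and *Spi1* and *Lyl1* came after them at 5.29 ± 3.73 and 3.38 ± 1.53. *Fli1*, *Cd34*, *Runx1* and *Gata2* lay between 1.06 and 1.90 FPKM on average, and *Meis1* was lowest at 0.325 ± 0.0169. From *Myb* down to *Gata2* each gene's libraries overlapped those of the next gene in the order. At S3, *Lyl1* was first at 14.7 ± 4.18 FPKM and overlapped *Myc* at 8.73 ± 2.23. *Spi1* (1.73 ± 0.320) and *Runx1* (0.943 ± 0.208) came next without overlapping each other or the genes on either side. The other 6 were at 0.468 FPKM or less in every WT library, and *Kit*, behind *Myc* and *Myb* alone at S1, had the lowest mean at 0.0287 ± 0.0302. From *Meis1* through *Cd34* and *Gata2* to *Kit*, each gene's S3 libraries overlapped those of the next, so that the order at this low end is not resolved.

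A pair of libraries stood apart before any comparison. The WT S1 libraries of embryos 0 and 8, both male, held summed levels of 197 and 121 CPM over 11 neutrophil genes. The other 2 WT S1 libraries, both female, held 1290 and 1114, the Het libraries 1546 and 1536 and the KO libraries 1584 and 1660, and of these 4 only KO embryo 2 was female. Over 9 mast cell and basophil genes the values were 8.91 and 8.79 in embryos 0 and 8, 54.1 and 45.9 in embryos 1 and 5, 67.1 and 47.9 in Het, and 116 and 84.4 in KO. Over 13 hepatoblast genes embryos 0 and 8 were instead higher, at 377 and 375, against 31.0 to 189.9 in the other 6. Globin genes took 1.07% and 1.00% of their counts, against 0.0738% to 0.305% in the other S1 libraries and 10.0% to 11.8% at S3. At S3, WT embryo 0 and KO embryo 9 had the highest sums over 10 megakaryocyte genes (105 and 129, against 57.9 to 72.3) and over 10 endothelial genes (47.3 and 33.0, against at most 29.5). KO embryo 9 also had the highest S3 neutrophil sum (14.2, against at most 4.93), and WT embryo 0 the highest S3 hepatoblast sum (1019, against at most 638). The part of other cells in the members' levels was not tested, and in bulk RNA fewer cells of a type and less RNA per cell cannot be told apart. The targeted gene followed the labels at S1, where *Nprl3* had 804 ± 173 normalized counts in WT (SD, n = 4), 385 ± 5.47 in Het and 14.9 ± 7.57 in KO (SD, n = 2 each). At S3 the values were 5158 ± 1010, 4307 ± 596 and 3495 ± 154. These counts are over the whole gene and not the deleted promoter region alone. The paper states that non-coding transcripts derived from the enhancers confound the measurement of *Nprl3* mRNA. Its promoter-specific digital PCR found no detectable *Nprl3* mRNA in *Nprl3*−/− cells.

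RefSeq start-site windows of 250 bases before to 50 after the start (GRCm38.p6, another build than the mm39 of the counts) were given for 7 of the 10 members, in 10 entries. Myc, Spi1 and Fli1 were not matched. Windows are shown for *Kit*, *Cd34* and *Meis1*, which fell, for the upstream start of *Runx1*, which did not pass, and for *Lyl1*, which rose. Capitals mark matches, on either strand, to motifs of the members' own factor families. For GATA factors AGATAA and also TGATAA were searched, for ETS factors AGGAAG, for RUNX factors TGTGGT, for MYC with MAX CACGTG, and for MEIS factors TGACAG.
Kit (chr5:75574737-75575036, plus strand): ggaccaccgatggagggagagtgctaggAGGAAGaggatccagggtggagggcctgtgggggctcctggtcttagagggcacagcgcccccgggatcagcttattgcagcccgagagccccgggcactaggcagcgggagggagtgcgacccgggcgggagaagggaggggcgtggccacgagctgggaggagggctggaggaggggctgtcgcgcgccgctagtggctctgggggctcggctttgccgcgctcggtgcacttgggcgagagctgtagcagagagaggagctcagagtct
Cd34 (chr1:194938571-194938870, plus strand): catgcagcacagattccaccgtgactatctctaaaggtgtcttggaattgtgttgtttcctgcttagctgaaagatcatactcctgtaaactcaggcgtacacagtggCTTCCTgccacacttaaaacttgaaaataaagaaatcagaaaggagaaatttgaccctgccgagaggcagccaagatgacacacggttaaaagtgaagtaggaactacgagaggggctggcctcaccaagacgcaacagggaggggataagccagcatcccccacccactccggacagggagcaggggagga
Meis1 (chr11:19018920-19019219, minus strand): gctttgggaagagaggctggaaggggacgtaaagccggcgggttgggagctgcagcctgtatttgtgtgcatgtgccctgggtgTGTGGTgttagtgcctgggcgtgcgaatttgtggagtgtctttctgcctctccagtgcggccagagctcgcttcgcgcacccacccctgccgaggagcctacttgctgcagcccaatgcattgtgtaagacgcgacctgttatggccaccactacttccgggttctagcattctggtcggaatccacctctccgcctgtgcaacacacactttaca
Runx1 upstream start (chr16:92826025-92826324, minus strand): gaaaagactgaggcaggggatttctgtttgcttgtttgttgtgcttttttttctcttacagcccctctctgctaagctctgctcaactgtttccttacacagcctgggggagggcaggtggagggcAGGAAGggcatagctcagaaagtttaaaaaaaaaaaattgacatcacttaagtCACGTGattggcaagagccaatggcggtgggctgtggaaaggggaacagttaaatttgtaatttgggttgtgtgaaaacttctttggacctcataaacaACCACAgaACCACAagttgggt
Lyl1 (chr8:84701207-84701506, plus strand): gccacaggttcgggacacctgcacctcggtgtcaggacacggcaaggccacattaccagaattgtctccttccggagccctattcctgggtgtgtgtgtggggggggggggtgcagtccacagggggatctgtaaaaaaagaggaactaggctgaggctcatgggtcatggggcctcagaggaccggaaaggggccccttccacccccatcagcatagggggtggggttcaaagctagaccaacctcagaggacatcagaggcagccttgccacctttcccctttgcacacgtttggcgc

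Counted from the start site, *Kit* held 1 ETS match at base −222 and *Cd34* 1 at base −142, the latter on the other strand. *Meis1* held 1 RUNX match at base −166. The upstream *Runx1* window held 2 RUNX matches on the other strand, at bases 29 and 37, with 1 ETS match at base −124 and 1 match to CACGTG at base −71. The *Lyl1* window held none, nor did those of *Myb* and *Gata2* or the other *Runx1* start. Over all 32851 windows, 35.4% held the ETS motif, 16.8% the RUNX motif, 7.15% the MYC motif, 19.2% the MEIS motif, 11.2% the first GATA motif and 9.05% the other. A match describes the letters of a window and is not evidence of binding.

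With all libraries in the fit, *Kit* fell the most of the 10 in each genotype. In Het this order turned without the S3 library of embryo 3, where *Cd34* and *Gata2* had 0 counts left at S3 and lower fitted values than *Kit*. *Kit* (ENSMUSG00000005672.13; chromosome 5, 75735576 to 75817404, plus strand), with mm39 coordinates as for the genes below, encodes the stem cell factor receptor. In WT S1 libraries it had 2269, 1658, 2607 and 3831 normalized counts, and at S3 19.9, 7.07, 2.36 and 2.23, which were 15, 5, 2 and 1 raw counts. The stages were far apart in every embryo, and the S3 level was 0.875% of the S1 level of the same embryo in embryo 0 and 0.0583% in embryo 8. The fit gave a log2 fold change of −8.25 (SE 0.52, edgeR adjusted p = 8.22e-07), and its rank was 36 from the lowest of 13514. From the summed raw counts the S3 level was 0.316% of S1 (exact binomial 95% interval 0.200 to 0.474%, counting error only). In Het the levels went from 3083 and 1972 to 21.6 and 1.69, and in KO from 2111 and 2573 to 9.79 and 8.71, with log2 fold changes of −7.78 and −7.99.

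The other surface marker, *Cd34* (ENSMUSG00000016494.10; chromosome 1, 194621029 to 194647172, plus strand), was uneven at both stages. Its WT S1 levels were 106, 554, 461 and 112, so that embryos 0 and 8 were the lower ones, as for the neutrophil genes. At S3 the levels were 41.0, 4.25, 2.36 and 15.6, and no S3 library reached an S1 library. The fit gave a log2 fold change of −4.29 (SE 0.87, edgeR adjusted p = 0.00135); without the S1 libraries of embryos 0 and 8 the log2 fold change was −5.01. In Het it went from 292 and 526 to 16.2 and 0, with a log2 fold change of −5.68 (SE 0.47, edgeR adjusted p = 2.96e-11); without the S3 library of embryo 4 the value was −4.62, and without that of embryo 3 the library left held 0 counts. In KO it went from 682 and 652 to 7.83 and 164, so that embryo 9 kept 25.1% of its S1 level and embryo 2 1.15%. The KO call, a log2 fold change of −2.95 (SE 0.98, edgeR adjusted p = 0.0477), was lost in DESeq2 (adjusted p = 0.116), and without the S3 library of embryo 9 the log2 fold change was −6.40. In that library the summed megakaryocyte, endothelial and neutrophil lists stood at 129, 33.0 and 14.2 CPM. In the S3 library of KO embryo 2 they stood at 63.9, 25.3 and 1.65. The part of other cells in the *Cd34* level was not tested.

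*Myb*, *Gata2* and *Myc* fell in each genotype. *Myb* (ENSMUSG00000019982.16; chromosome 10, 21000834 to 21036883, minus strand) had 2178, 2864, 2608 and 3072 normalized counts at S1 and 64.8, 59.4, 47.1 and 46.9 at S3 in WT. The S3 level was between 1.53% and 2.98% of the S1 level in all 8 embryos, the narrowest span of the 10 members on a ratio scale. The fit in WT gave a log2 fold change of −5.60 (SE 0.20, edgeR adjusted p = 1.78e-07), and the log2 fold changes in Het and KO were −5.50 and −5.48. *Myc* (ENSMUSG00000022346.18; chromosome 15, 61857227 to 61862223, plus strand) went from 8212, 9459, 10160 and 8270 to 828, 906, 713 and 478 in WT. It stayed at 5.70% to 13.1% of its S1 level over the 8 embryos, with a log2 fold change of −3.62 (SE 0.22, edgeR adjusted p = 5.91e-07) in WT, −4.04 in Het and −3.21 in KO. *Gata2* (ENSMUSG00000015053.15; chromosome 6, 88170559 to 88184018, plus strand) went from 141, 176, 231 and 159.6 to 15.9, 9.90, 2.36 and 0 in WT, the last library with 0 raw counts, with a log2 fold change of −4.54 (SE 0.58, edgeR adjusted p = 6.81e-05). In KO it went from 331 and 259 to 13.7 and 19.2 (−4.16 on the log2 scale). In Het it went from 267 and 168 to 3.59 and 0, which rests on 2 raw counts over both S3 libraries against 618 at S1. The ratio of these sums was 0.774% (exact binomial 95% interval 0.0936 to 2.81%, counting error only).

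In WT, the ETS factors and *Meis1* fell by less than the 5 genes above. *Spi1* (ENSMUSG00000002111.9; chromosome 2, 90912562 to 90946101, plus strand) had 238, 762, 642 and 118 normalized counts in WT S1 libraries, with embryos 0 and 8 again lowest, and 135, 134, 183 and 123 at S3. The WT stages overlapped, since embryo 8 had no fall (103.9% of its S1 level) while embryo 1 went to 17.6%. The fit gave a log2 fold change of −1.63 (SE 0.52, edgeR adjusted p = 0.0178), which was lost without embryo 1 (adjusted p = 0.102) or embryo 5 (0.0654), and without the S1 libraries of embryos 0 and 8 the log2 fold change was −2.29 (adjusted p = 1.06e-05). In Het and KO *Spi1* went from 589 and 789.5 to 151 and 128 and from 931 and 863 to 131 and 109.7, with log2 fold changes of −2.30 and −2.91.

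*Fli1* (ENSMUSG00000016087.14; chromosome 9, 32333500 to 32454157, minus strand) went from 142, 344, 202 and 127 to 50.3, 8.49, 23.6 and 29.0 normalized counts in WT, with a log2 fold change of −2.87 (SE 0.51, edgeR adjusted p = 6.36e-04). *Meis1* (ENSMUSG00000020160.19; chromosome 11, 18829817 to 18969749, minus strand) had 97.1, 108, 108 and 108 at S1 and 51.6, 7.07, 11.8 and 29.0 at S3, with a log2 fold change of −2.08 (SE 0.51, edgeR adjusted p = 0.00423). For both genes WT embryo 0 had the highest WT S3 level, and in KO embryo 9 was above embryo 2, at 47.0 against 17.6 for *Fli1* and 36.6 against 3.92 for *Meis1*. These were the 2 S3 libraries with the highest megakaryocyte and endothelial sums. Without the WT S3 library of embryo 0 the WT log2 fold changes were −3.35 for *Fli1* and −2.79 for *Meis1*. Without the KO S3 library of embryo 9 those in KO were −4.07 and −4.87, in place of −3.19 and −2.51. In Het the S3 levels were 10.8 and 8.45 for *Fli1* and 7.19 and 8.45 for *Meis1*, and the log2 fold changes were −4.05 and −3.54. Of the counted *Meis1* exon bases, 18.3% also belonged to exons of other genes, where reads were not counted.

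*Runx1* (ENSMUSG00000022952.18; chromosome 16, 92398354 to 92623037, minus strand) was the member whose stage difference did not pass in any genotype. It had 413, 557, 343 and 412 normalized counts at S1 and 431, 284, 283 and 399.6 at S3 in WT, 371 and 258 and 286 and 280.4 in Het, and 428 and 627 and 307 and 484 in KO. The stages overlapped in each genotype, and the S3 level was 51.0% to 109% of the S1 level over the 8 embryos. The WT fit gave a log2 fold change of −0.30 (SE 0.22, 95% interval −0.80 to 0.19, edgeR adjusted p = 0.252), so that a fall by 0.80 on the log2 scale was within its interval. In Het the log2 fold change was −0.16 (edgeR adjusted p = 0.487) and in KO −0.43 (0.308). With the embryo as a replicate block the KO value of −0.44 passed (edgeR adjusted p = 0.0327). Scaled by library totals alone, which moved the median of all genes in WT to −1.15, *Runx1* was at −1.32 and was called lower in all 3 genotypes. In Het it was also called lower without the S1 library of embryo 4 (−0.45, edgeR adjusted p = 0.0451), and without that of embryo 3 the value was 0.082 (edgeR adjusted p = 0.755).

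*Lyl1* was the only member called higher at S3 in the fit of each genotype. *Lyl1* (ENSMUSG00000034041.6; chromosome 8, 85427936 to 85431569, plus strand) had 180.4, 340.4, 215 and 112 normalized counts at S1 and 843, 599.9, 1037 and 1210 at S3 in WT. The lowest S3 library, that of embryo 1, was above the highest S1 library, which came from the same embryo. In Het it went from 165 and 226 to 1023 and 1032, and in KO from 186 and 174 to 816 and 944. The S3 level was 176% to 1084% of the S1 level, higher in 8 of 8 embryos. The WT fit gave a log2 fold change of 2.11 (SE 0.35, edgeR adjusted p = 4.08e-04), the Het fit a log2 fold change of 2.40 (SE 0.17, edgeR adjusted p = 2.29e-12) and the KO fit a log2 fold change of 2.27 (SE 0.21, edgeR adjusted p = 6.20e-04). The rise passed under every alternative run in the 3 genotypes, down to 1.10 in WT with library totals alone. *Lyl1* lies within the bounds of *Nfix* on the other strand, and the counting did not use strand. The 2 genes share 229 of the 2033 counted *Lyl1* exon bases, where reads were left out. *Nfix* itself had 277 ± 12.3 normalized counts at S1 and 236 ± 19.3 at S3 in WT (SD, n = 4). In the KO libraries it went from 264 and 249.9 to 170.3 and 326, lower in embryo 2 and higher in embryo 9.

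**Figure D2:**
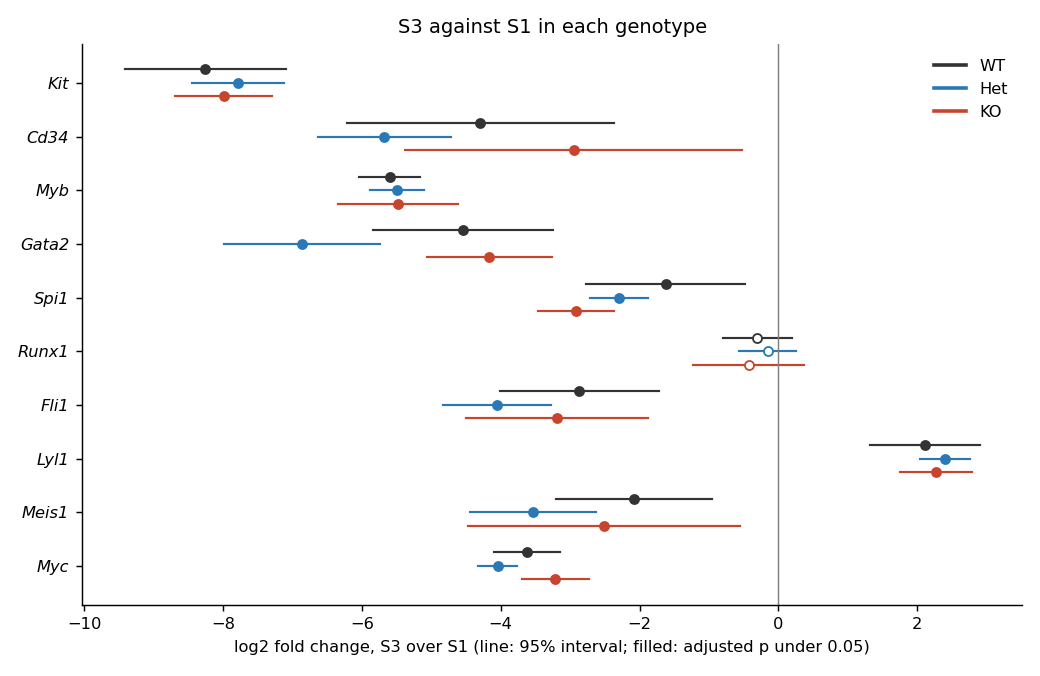
Log2 fold change of each member from S1 to S3 (S3 over S1) in WT, Het and KO, with 95% intervals from the edgeR fit and filled points for an adjusted p under 0.05. *Kit* lies between −8.25 and −7.78, *Runx1* has open points at −0.16 to −0.43, and *Lyl1* has filled points at 2.11 to 2.40.

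**Figure D3:**
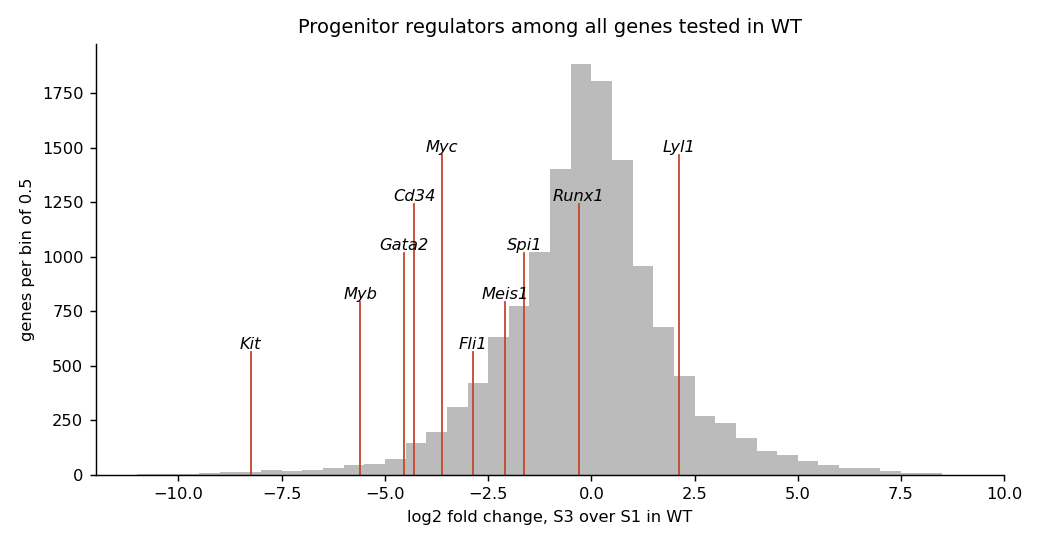
Histogram of the log2 fold change (S3 over S1) of the 13514 genes tested in WT, in bins of 0.5, with the members as lines whose height has no meaning. *Kit* and *Myb* lie in the lower tail, *Runx1* near the median of −0.08, and *Lyl1* above 89.5% of genes.

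Other genes of the members' pathways were read by the same fits. Their counts stand beside 35.0% of all genes called lower and 30.6% called higher in WT. Among 16 other receptors and surface proteins of progenitors, 13 were tested in WT, of which 10 fell from S1 to S3 and 0 rose (median log2 fold change −2.87). *Flt3*, a receptor tyrosine kinase related to KIT, changed by −7.35 (SE 0.95, edgeR adjusted p = 6.86e-05), and *Cd44*, the hyaluronan receptor, by −2.57 (SE 0.18, edgeR adjusted p = 1.46e-06). Among 21 other transcription factors of stem and progenitor cells, 14 were tested, 8 fell and 4 rose, so that this list too was mixed. *Etv6*, an ETS repressor, changed by −4.55 and *Hhex*, a homeobox gene, by −3.69, while *Lmo2*, the LIM-domain bridge of the TAL1 and LYL1 complexes, rose by 1.94 (SE 0.13, edgeR adjusted p = 1.27e-06). *Tal1*, the relative of *Lyl1*, was looked up after the values were seen and rose by 2.00 (SE 0.18, edgeR adjusted p = 7.22e-06). Of 13 cofactors of the members' factors, 12 were tested, 3 fell and 4 rose, shares near those of all genes. *Cbfb*, encoding the partner of RUNX1, fell by 3.79 on the log2 scale (SE 0.38, edgeR adjusted p = 1.20e-05), and *Tcf4*, an E protein, fell by 2.33.

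Downstream of KIT, 21 of 23 signalling genes were tested in WT, 12 fell and 3 rose. *Stat5a*, a transcription factor activated by cytokine receptors, fell by 5.21 (SE 0.31, edgeR adjusted p = 5.91e-07), and the log2 fold changes of *Ptpn6*, a tyrosine phosphatase, and *Pik3cd*, a PI3-kinase catalytic subunit, were −3.62 and −3.66. Of 20 genes known as MYC targets, in ribosome synthesis, nucleotide and polyamine synthesis and the cell cycle, 19 fell, with a median of −2.05. The log2 fold changes were −3.65 for *Srm*, spermidine synthase, −2.39 for *Nolc1*, a nucleolar protein, and −1.93 for *Ppat*, an enzyme of purine synthesis. The 1 that rose was *Odc1*, ornithine decarboxylase, which changed by 2.43 (SE 0.26, edgeR adjusted p = 1.94e-05). In the MYC and MAX network, 10 of 11 genes were tested, 3 fell and 3 rose, near the shares of all genes (35.0% and 30.6%). *Mxd3* and *Mxi1*, which encode repressors that compete with MYC for MAX, rose by 5.48 (SE 0.32, edgeR adjusted p = 5.63e-07) and 2.90, and *Mlxip*, a glucose-responsive relative, fell by 2.58. All 17 genes of an erythroid maturation list rose, with a median of 4.80; *Nfe2*, an erythroid transcription factor, *Bnip3l*, a receptor of mitochondrial clearance, and *Fech*, ferrochelatase, rose by 4.14, 3.44 and 4.60. In Het and KO, 19 and 19 of the 20 MYC targets fell, and 13 of 14 and 10 of 15 tested progenitor receptors.

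Loss of *Nprl3* was compared with WT within each stage. At S1, 0 of the 10 members were called in KO against WT, beside 0.00712% of the 14039 genes tested, and 1 member, *Gata2*, had an unadjusted p under 0.05. In DESeq2 0 were called as well. *Gata2* had 141, 176, 231 and 159.6 normalized counts in WT and 331 and 259 in KO, with both KO libraries above all 4 WT libraries, and the fit gave a log2 fold change of 0.74 (SE 0.27, 95% interval 0.12 to 1.36, edgeR adjusted p = 0.9998). *Cd34* had 682 and 652 in KO against 106 to 554 in WT, a log2 fold change of 1.11 (interval −0.44 to 2.67). *Spi1* had 931 and 863 against 118 to 762, with 1.03 (−0.48 to 2.53). *Meis1* lay above WT as well, by 0.16, so that KO and WT did not overlap for 4 of the 10 members, against 9.84% of all genes tested in either direction. Both KO libraries were also above all 4 WT libraries for the neutrophil and mast cell lists (values above) and for the macrophage list, at 67.9 and 69.0 CPM against 31.5 to 53.5 in WT. The part of these cells in the values was not tested. Without the WT libraries of embryos 0 and 8 the log2 fold changes were 0.37 for *Cd34*, 0.33 for *Spi1* and 0.51 for *Gata2*.

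**Figure D4:**
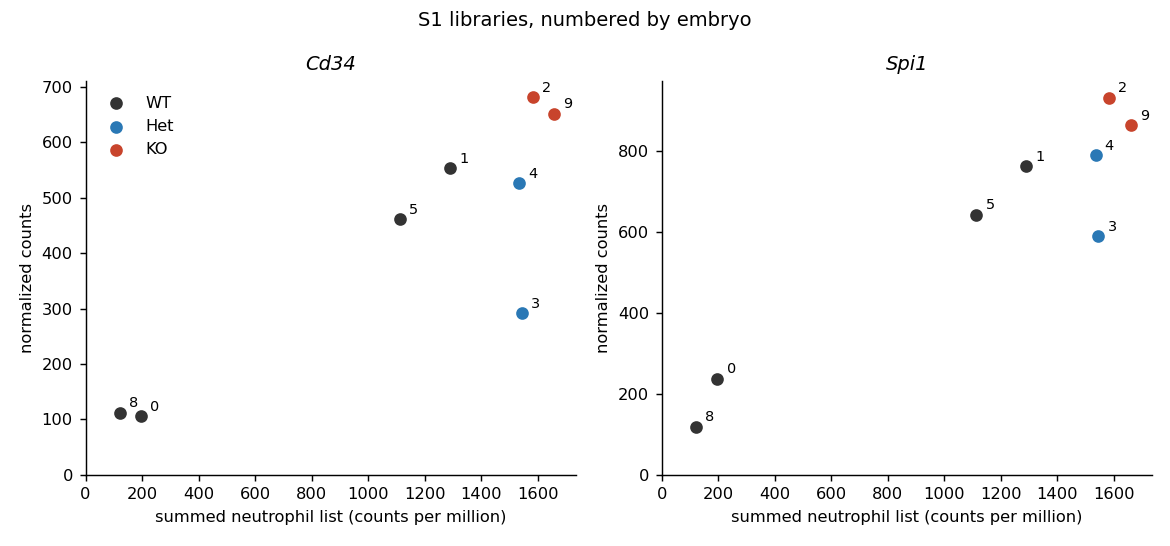
Normalized counts of *Cd34* and *Spi1* in the 8 S1 libraries, numbered by embryo, against the summed level of 11 neutrophil genes in CPM. WT embryos 0 and 8 sit at the lower left for both genes, and WT embryos 1 and 5 lie nearer to the Het and KO libraries.

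The other 6 members overlapped between KO and WT at S1. Their log2 fold changes, each with its 95% interval, were 0.54 (−0.48 to 1.56) for *Fli1*, 0.30 (−0.34 to 0.94) for *Runx1*, 0.07 (−0.39 to 0.53) for *Myb*, −0.09 (−0.49 to 0.32) for *Myc*, −0.13 (−0.84 to 0.58) for *Kit* and −0.24 (−1.23 to 0.75) for *Lyl1*. The intervals of *Kit*, *Myb*, *Runx1*, *Myc* and *Meis1* lay within 1 log2 unit of 0, while those of *Cd34*, *Spi1*, *Fli1*, *Gata2* and *Lyl1* reached beyond it.

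At S3, 8 members passed the filter (*Kit* and *Gata2* did not), and 0 were called in KO against WT, beside 0.559% of the 11804 genes tested. None of the 8 had an unadjusted p under 0.05, and DESeq2 called 0. KO and WT overlapped for all 10 members, while they did not for 18.5% of all genes tested. *Cd34* had 7.83 and 164 normalized counts in KO against 41.0, 4.25, 2.36 and 15.6 in WT, so that its log2 fold change of 2.46 (−0.05 to 4.96) rested on embryo 9; without that library *Cd34* did not pass the filter. It was called with sex as a covariate (2.20, edgeR adjusted p = 0.0316) and without the filter on low counts (adjusted p = 0.0314), settings that called 547 and 356 of all genes in place of 66. *Myc* had 824 and 1015 against 828, 906, 713 and 478, with 0.34 (−0.20 to 0.89), and *Lyl1* had 816 and 944 against 843, 599.9, 1037 and 1210, with −0.05 (−0.65 to 0.54). The remaining values were 0.24 (−1.28 to 1.76) for *Fli1*, 0.21 (−0.60 to 1.02) for *Myb*, 0.20 (−0.40 to 0.79) for *Runx1*, −0.24 (−2.36 to 1.87) for *Meis1* and −0.25 (−0.84 to 0.34) for *Spi1*. *Kit* had 9.79 and 8.71 normalized counts in KO and *Gata2* 13.7 and 19.2, beside WT ranges of 2.23 to 19.9 and 0 to 15.9. The macrophage list stood in KO at S3 at 23.9 and 36.9 CPM over 15 genes against 47.0 or more in WT, and 2 of its 12 tested genes were called. Of the tested hepatoblast genes 13 of 13 lay below 0 (median −1.45). The megakaryocyte list had 1 of 8 below 0 (median 0.67) and the endothelial list 4 of 9 (median 0.06). In these 3 lists 0 genes were called. The part of other cells in the members' values was not tested.

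**Figure D5:**
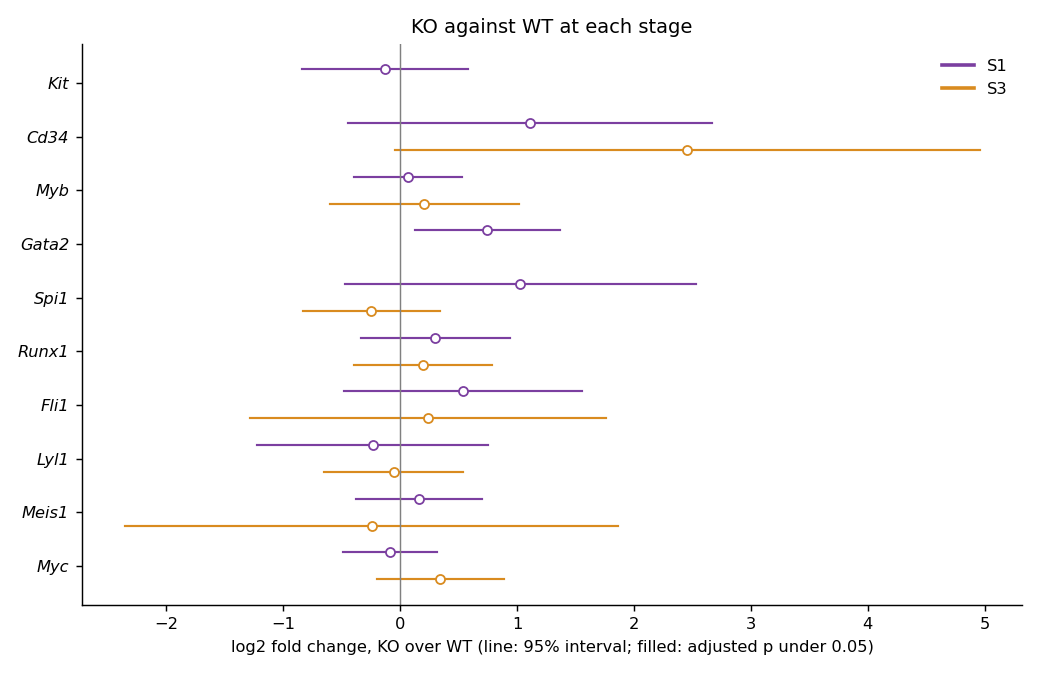
Log2 fold change of each member in KO over WT at S1 and S3, with 95% intervals from the edgeR fit. All points are open, since none had an adjusted p under 0.05, and *Kit* and *Gata2* have no S3 point because they did not pass the filter; the *Cd34* interval at S3 runs from −0.05 to 4.96.

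The context lists were not called between KO and WT either. At S1 and at S3, 0 genes of the lists of progenitor receptors, progenitor transcription factors, KIT signalling, the MYC network, MYC targets, cofactors and erythroid maturation passed. Genes of smallest p in each list at S3 are given here with their log2 fold changes. Among them were *Tcf4* (1.06, adjusted p = 0.123), *Ccnd2*, a D-type cyclin (1.14, 0.168), *Mxd3* (−0.58, 0.179) and *Pik3r1*, a PI3-kinase regulatory subunit (−0.73, 0.195), all by edgeR. The values of other genes of these lists were *Pbx3* −0.23, *Lmo4* −0.52, *Etv6* 1.06, *Cd44* −0.75, *Csf2rb* 1.36, *Ptpn6* −0.65, *Mxd4* 0.62, *Odc1* −0.57 and *Epb42* −0.39 on the log2 scale. The MYC targets had a median of 0.21 at S3, with 2 of 19 below 0, and 0.01 at S1, with 9 of 20 below 0, against 0.01 and −0.01 over all genes. The erythroid maturation list had a median of −0.24 at S3, with 17 of 17 below 0, and −0.76 at S1, with 14 of 17 below 0. Of all genes tested, 5785 of 11804 lay below 0 at S3 and 7180 of 14039 at S1. In Het against WT at S1 the median of this list was −1.11, with 14 of 17 below 0. WT embryos 0 and 8 held the highest globin shares at S1 (1.07% and 1.00%), and their part in these medians was not tested.

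In Het against WT, 0 members were called at S1, where all 10 were tested, and 0 at S3, where 7 were (*Kit*, *Cd34* and *Gata2* did not pass the filter). Of all genes tested, 0.0% were called at S1 and 0.0% at S3. DESeq2 called 0 members at both stages, and 0 of the 10 and 0 of the 7 had an unadjusted p under 0.05. At S1 the log2 fold changes ran from −0.46 in *Runx1* to 0.63 in *Spi1*. *Myc* lay above all 4 WT libraries, at 12600 and 10770, with 0.36 (−0.02 to 0.75), and *Meis1* below them, with −0.20 (−0.73 to 0.34). These were the 2 of the 10 members whose Het and WT libraries did not overlap at S1, against 18.8% of all genes tested, a share near that of the members. The other values were 0.40 (−1.24 to 2.04) for *Cd34*, 0.29 (−0.39 to 0.96) for *Gata2*, −0.35 (−1.33 to 0.63) for *Fli1*, −0.13 for *Lyl1*, −0.04 for *Kit* and −0.01 for *Myb*. At S3 the Het levels of *Meis1* and *Fli1* were at the low end of WT, with −1.64 (−3.58 to 0.30) and −1.53 (−3.13 to 0.07). Without the WT library of embryo 0, the highest for both, *Fli1* was at −1.05 and *Meis1* did not pass the filter. In the same comparison 6 of 7 endothelial, 13 of 13 hepatoblast and 8 of 8 megakaryocyte genes tested lay below 0 (medians −2.41, −1.32 and −0.46), with 0 called by edgeR and 3, 10 and 0 at an unadjusted p under 0.05, and their part in the *Meis1* and *Fli1* values was not tested. The other 5 members lay between −0.31 (*Runx1*) and 0.15 (*Lyl1*). With sex as a covariate, which sets the 2 male Het embryos against WT embryos 0 and 8, *Cd34* and *Spi1* were called higher at S1 (edgeR adjusted p = 0.0166 and 0.0238), and *Meis1*, *Fli1* and *Runx1* lower at S3 (0.0181, 0.0411 and 0.0383). With this covariate 397 of 13818 genes were called at S1 and 2124 of 11746 at S3, against 0 and 0 without it. Without the S1 libraries of embryos 0 and 8 the *Cd34* and *Spi1* values were −0.35 and −0.07.

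Whether the fall or rise from S1 to S3 differed between genotypes was tested by an interaction over both stages. Of the 10 members 0 were called for KO against WT (beside 0.00742% of 13485 genes), and 0 for Het against WT (beside 0.0% of 13364). DESeq2 called 0 members in both, and 0 had an unadjusted p under 0.05. The KO stage difference minus that of WT was 1.34 (−1.79 to 4.47) log2 units for *Cd34*, 0.42 (−0.26 to 1.11) for *Myc*, 0.39 (−1.43 to 2.22) for *Gata2*, 0.30 (−1.67 to 2.28) for *Kit*, 0.17 (−0.96 to 1.30) for *Lyl1* and 0.14 (−0.62 to 0.91) for *Myb*. It was −1.29 (−3.01 to 0.44) for *Spi1*, −0.41 (−2.54 to 1.72) for *Meis1*, −0.31 (−2.14 to 1.53) for *Fli1* and −0.11 (−0.97 to 0.75) for *Runx1*. The *Spi1* difference was −0.62 without the S1 libraries of WT embryos 0 and 8. In Het the differences ran from −2.33 in *Gata2* to 0.47 in *Kit*. For 6 members (*Kit*, *Cd34*, *Gata2*, *Spi1*, *Fli1* and *Meis1*) the KO interval spanned more than 3 log2 units.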

How the data were processed

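RNA-seq libraries of S1 and S3 erythroid cells from 8 E13.5 embryos (16 libraries) were analysed. The authors made the deposited counts, unnormalized read pairs per gene, by aligning reads to mm39 with STAR 2.7.9 and counting with featureCounts 1.6.4, per the labels and the study's methods; strand was not used, and a read pair was left out where it aligned at more than 1 place or fell on exons of more than 1 gene. RNA had been amplified before poly(A) library preparation. Another 4 library columns were not used. Library totals were 23331156 to 36035368 at S1 and 20666044 to 37609502 at S3.

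Of 55416 genes, 54749 were matched to a symbol. Counts were scaled by TMM and tested in edgeR 4.0.16 (R 4.3.3) by its quasi-likelihood test on genes with a mean normalized count above 10, at an adjusted p of 0.05. Intervals came from the fitted SE. Groups came from the labels. Each comparison used its own groups, with embryo not in the model. Same-numbered S1 and S3 libraries came from the same embryo. Their deviations from the group means correlated by 0.0653 to 0.311 in WT, 0.0394 in Het and 0.378 in KO over 13416 genes, and the fit with embryo as a block was an alternative. Other alternatives were DESeq2 1.42.0, other scalings and filters, one fit of all libraries, sex as a covariate and leaving out libraries. The newer quasi-likelihood method and leaving out the libraries that stood apart were added after seeing the data. The scripts were tested on simulated data.

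All 10 members were named, with the 3 genes of smallest p in S3 against S1 in WT and the 2 of smallest p in KO against WT at S3 from each context list, except 2 genes that are not reported here; *Tal1* and *Odc1* at S3 against S1 were singled out after their values were seen, as were *Pf4*, *Ppbp*, *Cdh5* and *Nfix*. The members and lists were chosen with earlier results of these data known.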

Additional observations from a re-analysis of the deposited data

Results flagged for a closer look

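The *Meis1* level of WT embryo 0 at S1, 97.1 normalized counts, lay far from the other 3 WT libraries (107.6 to 108.4) by Dixon's criterion for 4 samples. It was the 1 flag among 20 groups of 4 libraries examined, and chance flags about 1 in 20.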

How the results depend on the processing

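The stage calls of *Kit*, *Myb*, *Gata2*, *Myc*, *Fli1*, *Meis1* and *Lyl1* kept their direction and call in each genotype under every alternative that gave a value. The replicate block (embryo) moved the KO value of *Runx1* from −0.43 to −0.44, which was then called lower, and changed no other member call. Scaling by library totals alone moved the median of all genes to −1.15 in WT, −1.07 in Het and −1.03 in KO, and the share of called genes that were higher from 46.7% to 17.2%, from 47.9% to 20.9% and from 46.5% to 17.6%. *Lyl1* stayed higher there, and the *Runx1* calls appeared. In the comparisons between genotypes most members lay near 0 and signs turned often; none of the members below was called unless stated. The cause of the other changes was not tested. With 2 Het and 2 KO embryos, leaving out a library left 1 in that arm, which was assumed to vary like the other group. Depth limits *Kit*, *Gata2* and *Cd34* at S3, where libraries held few counts. For KO against WT at S1 the number of all genes called was 1, and it was 45 with DESeq2, 0 with library totals only, 7 with no filter on low counts, 2 with all 16 libraries in the fit, 21 with sex as a covariate, 2 without the WT_S1 libraries of embryos 0 and 8. For KO against WT at S3 the number of all genes called was 66, and it was 259 with DESeq2, 42 with upper-quartile scaling, 356 with no filter on low counts, 104 with all 16 libraries in the fit, 547 with sex as a covariate, 27 without the WT_S3 library of embryo 0 and the KO_S3 library of embryo 9. For Het against WT at S1 the number of all genes called was 0, and it was 30 with DESeq2, 397 with sex as a covariate, 5 without the WT_S1 libraries of embryos 0 and 8. For Het against WT at S3 the number of all genes called was 0, and it was 1 with DESeq2, 57 with no filter on low counts, 2124 with sex as a covariate. For the KO interaction the number of all genes called was 1, and it was 12 with DESeq2, 3 with no filter on low counts, 2 with all 16 libraries in the fit. For the Het interaction the number of all genes called was 0, and it was 6 with no filter on low counts. With library totals only, the values that changed sign or call were, in S3 against S1 in WT *Runx1* −1.32 and in S3 against S1 in Het *Runx1* −1.14 and in S3 against S1 in KO *Runx1* −1.34 and in KO against WT at S3 *Lyl1* 0.038. With DESeq2, the values that changed sign or call were, in S3 against S1 in KO *Cd34* −2.93. With replicate block, the values that changed sign or call were, in S3 against S1 in KO *Runx1* −0.44. Without the WT_S1 libraries of embryos 0 and 8, the values that changed sign or call were, in KO against WT at S1 *Kit* 0.12 and in Het against WT at S1 *Kit* 0.21, *Cd34* −0.35, *Spi1* −0.065 and in the KO interaction *Fli1* 0.12. With no filter on low counts, the values that changed sign or call were, in KO against WT at S3 1 of the members called, *Cd34* 2.44. With sex as a covariate, the values that changed sign or call were, in KO against WT at S3 1 of the members called, *Cd34* 2.20 and in Het against WT at S1 2 of the members called, *Cd34* 1.91, *Myb* 0.031, *Spi1* 1.95, *Fli1* 0.26, *Lyl1* 0.41 and in Het against WT at S3 3 of the members called, *Spi1* 0.099, *Runx1* −0.57, *Fli1* −2.07, *Lyl1* −0.0034, *Meis1* −2.38, *Myc* 0.090. Without the WT_S3 library of embryo 0 and the KO_S3 library of embryo 9, the values that changed sign or call were, in KO against WT at S3 *Myb* −0.24, *Runx1* −0.052, *Fli1* −0.16 and in the KO interaction *Cd34* −0.81, *Myb* −0.33.

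Leaving out 1 library or embryo at a time gave, in S3 against S1 in WT, −1.83 to −1.17 for *Spi1*. In S3 against S1 in Het it gave −0.45 to 0.082 for *Runx1*. In KO against WT at S1 it gave 0 to 2 for all genes called, −0.13 to 0.22 for *Myb*, −0.45 to 0.10 for *Lyl1*, −0.30 to 0.10 for *Kit*, −0.023 to 0.54 for *Runx1*, −0.21 to 0.0082 for *Myc*. In KO against WT at S3 it gave 11 to 42 for all genes called, −2.57 to 0.58 for *Meis1*, −0.63 to 0.76 for *Fli1*, −0.22 to 0.080 for *Lyl1*, −0.32 to 0.59 for *Myb*, −0.16 to 0.48 for *Runx1*. In Het against WT at S1 it gave −0.20 to 0.15 for *Myb*, −0.56 to 0.030 for *Fli1*, −0.39 to 0.20 for *Lyl1*, −0.40 to 0.24 for *Kit*, −0.089 to 0.57 for *Gata2*, −0.10 to 0.85 for *Cd34*. In Het against WT at S3 it gave −0.21 to 0.057 for *Myc*, −0.011 to 0.31 for *Lyl1*, 0 to 3 for all genes called, −0.17 to 0.084 for *Spi1*, −0.019 to 0.23 for *Myb*. In the KO interaction it gave −0.40 to 0.032 for *Runx1*, −1.04 to 0.31 for *Fli1*, −2.79 to 0.42 for *Meis1*, −0.36 to 0.54 for *Lyl1*, −0.16 to 1.39 for *Kit*, −0.12 to 1.23 for *Gata2*, −2.14 to 2.92 for *Cd34*, −0.24 to 0.37 for *Myb*. In the Het interaction it gave −7.70 to 0.22 for *Cd34*, −0.13 to 0.39 for *Runx1*, −0.24 to 0.66 for *Lyl1*, −0.00046 to 0.28 for *Myb*, −1.87 to 1.55 for *Kit*. Among stage changes that stayed called, some values moved by over 1.5 times. In WT these were *Kit* −9.33 without WT embryo 0 and *Cd34* −5.86 without WT embryo 0, −3.51 without WT embryo 1, −3.62 without WT embryo 5 and *Gata2* −5.38 without WT embryo 0 and *Fli1* −3.49 without WT embryo 0, −2.17 without WT embryo 1 and *Meis1* −2.82 without WT embryo 0. In Het these were *Kit* −10.45 without Het S3 embryo 3, −6.83 without Het S3 embryo 4 and *Cd34* −11.83 without Het S3 embryo 3, −4.62 without Het S3 embryo 4 and *Gata2* −10.92 without Het S3 embryo 3, −5.85 without Het S3 embryo 4. In KO these were *Cd34* −2.03 without KO S3 embryo 2, −6.40 without KO S3 embryo 9 and *Fli1* −4.07 without KO S3 embryo 9 and *Meis1* −1.68 without KO S3 embryo 2, −4.87 without KO S3 embryo 9. The Het values without S3 embryo 3 for *Cd34* and *Gata2* are set against 0 counts, depend on the prior count and are no measure of size. Library totals alone lowered the stage value of every member.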
